A study of Macaca mulatta with 12 samples.

Results

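The contralateral lateral geniculate nucleus was examined layer by layer in rhesus macaques with monocular deprivation, from the 6 arrays that the labels call contralateral, of 12 in the series. This nucleus is the station of the thalamus that passes signals of the retina on to the primary visual cortex. Each array held total RNA of 1 layer on a human Affymetrix expression array, with 1 scaled intensity per probe set. By the labels, layers 1, 4 and 6 of this side were deprived (3 arrays) and layers 2, 3 and 5 were not (3 arrays). The other 6 arrays were of the ipsilateral geniculate of monocularly deprived macaques, where layers 2, 3 and 5 were the deprived ones and layers 1, 4 and 6 were not. The method, onset and length of deprivation, the age of the animals, their number, and any sharing of an animal between arrays are not stated in the labels. The p-values therefore measure the spread between these samples, which may be partly technical.

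In the primate geniculate each layer receives the axons of a single eye, and layers fed by either eye lie stacked in the same nucleus. Layers 1 and 2 hold the large magnocellular relay neurons, which respond to motion and low contrast, and layers 3 to 6 hold the small parvocellular neurons, which carry colour and fine detail. Depriving 1 eye leaves layers driven by that eye beside layers driven by the open eye. Loss of input is known to lower metabolic demand, and early deprivation to shrink relay cells. Within the contralateral geniculate the deprived set is always layers 1, 4 and 6, so deprivation, layer set and eye of input cannot be told apart in these 6 arrays. Each deprived layer was set beside its neighbour of the same cell class, which gave the pairs 1 and 2, 4 and 3, and 6 and 5.

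Measures of array quality overlapped between the deprived and non-deprived contralateral layers. Median intensity was 470 ± 58.8 (SD, n = 3) against 465 ± 21.6 (two-sided exact permutation p = 0.9, where 3 arrays against 3 cannot go below 0.1). The 3'/5' intensity ratio of the ACTB control, which rises as RNA degrades, was 27.1 ± 10.3 against 23.9 ± 6.46 (exact permutation p = 0.6), with the highest value, 38.2, on deprived layer 1. The mean correlation of each array with the other 5 contralateral arrays lay between 0.9398 and 0.9532. Of 19 thalamic relay neuron markers, 13 could be tested, and TCF7L2, SLC17A6 and ZIC1, which mark thalamic excitatory neurons, had mean intensities of 67343, 35239 and 39777 in the non-deprived layers. The relay markers PRKCD, GBX2, FOXP2, LHX2, LHX9 and SYT9 were not among the probe sets tested.

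Among the probe sets that passed the test, the higher signal was more often in the deprived layers. Of 11105 probe sets tested, 60 (0.54%) passed an adjusted p of 0.05 by limma with cell class as a covariate, 43 of them higher and 17 lower in deprived layers. They included 48 named genes, 35 higher and 13 lower. The higher probe sets differed by 0.86 to 2.17 on the log2 scale (median 1.23), which is 1.82-fold to 4.49-fold between geometric means, and the lower ones by -1.94 to -0.79 (median -1.14). All 60 kept 1 direction in 3 of 3 layer pairs, against 35.7% of all probe sets tested. On 53 of the 60 the intensities of the deprived and non-deprived layers did not overlap, against 15.3% of all probe sets tested. Both counts describe the same arrays on which the 60 were called and are no further support for them. At an unadjusted p under 0.05 there were 1644 probe sets, 897 higher and 747 lower.

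**Figure D1:**
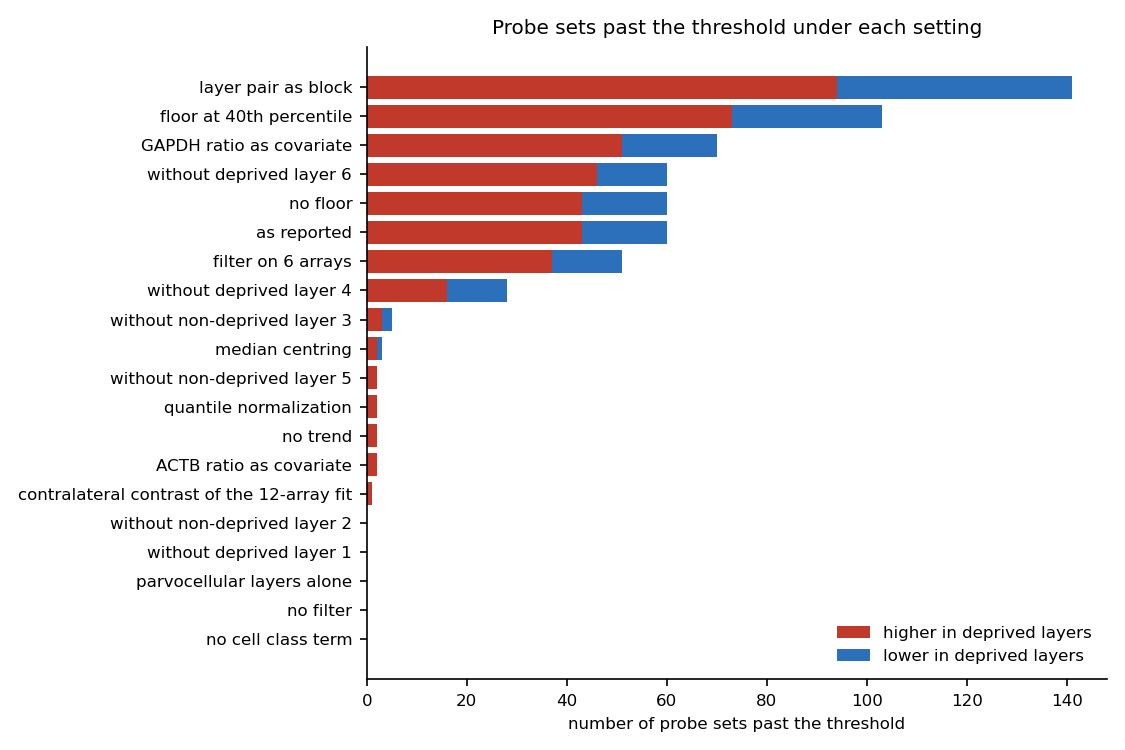
Number of probe sets past the threshold (x axis) in the contralateral comparison under each processing setting (y axis), with those higher in deprived layers in red and those lower in blue. The count was 60 as reported, 141 with the layer pair as a block and 0 without deprived layer 1 or without non-deprived layer 2.

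The number past the threshold depended on the arrays and settings used. It ranged from 0 to 141 over the 19 other settings that the plot of calls by setting lists, and the direction of the 60, which their selection on these arrays largely fixes, did not change. It was 0 without deprived layer 1 or without non-deprived layer 2, which leave 1 magnocellular array, 28 without deprived layer 4, 5 without non-deprived layer 3, 2 without non-deprived layer 5 and 60, of which 28 were shared, without deprived layer 6. PIK3R1 passed in 14 of the 19 settings and HRK in 13, and every other probe set in at most 8. The settings without layer 1, without layer 2 and with the parvocellular layers alone give the same differences, so the 19 are not separate checks.

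The largest difference was in PIK3R1, the regulatory subunit that holds and stabilises phosphoinositide 3-kinase downstream of insulin and growth factor receptors. Its intensity was 6988, 8604 and 9769 in deprived layers 1, 4 and 6 and 1026, 2331 and 2714 in non-deprived layers 2, 3 and 5. Every deprived layer lay well above every non-deprived one, and the lowest value of each set was magnocellular. The difference was 2.17 ± 0.22 on the log2 scale (standard error; 4.49-fold, adjusted p = 0.00152). The other PIK3R1 probe set tested differed by 0.25 ± 0.21 and did not pass, so the difference was seen on 1 of the gene's 2 probe sets.

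HRK, a BH3-only protein of the BCL2 family that promotes neuronal apoptosis, was also higher in deprived layers. It read 1449, 4920 and 4822 in layers 1, 4 and 6 and 275.2, 1018 and 1441 in layers 2, 3 and 5. The magnocellular pair was low on both sides, and deprived layer 1 was only just above non-deprived layer 5, yet within each pair the deprived layer was the higher by far. The differences in the pairs were 2.40, 2.27 and 1.74, and the fitted difference was 2.14 ± 0.21 (4.4-fold, adjusted p = 0.00152).

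Secreted factors and receptors were among the higher genes. GRM7, a metabotropic glutamate receptor that restrains transmitter release from presynaptic terminals, read 2254, 2687 and 1496 in deprived layers and 473.4, 883.1 and 725 in non-deprived layers. The sets did not overlap, and the difference was 1.63 ± 0.27 (adjusted p = 0.0278), although a second, dimmer GRM7 probe set differed by -0.08. VEGFA, the vascular endothelial growth factor, read 7646, 7198 and 6386 against 3090, 2390 and 3389, again without overlap. Its difference was 1.27 ± 0.19 (adjusted p = 0.0253), and its other 2 probe sets gave 0.11 and 0.67 without passing. FAM3C, a secreted cytokine-like protein, read 11248, 18770 and 8521 against 5377, 3498 and 2360, a difference of 1.78 ± 0.30. DKK3, a secreted protein of the dickkopf family, was higher by 1.28 ± 0.23, with 0.49 and -0.32 on its other 2 probe sets.

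ADAMTS3, a secreted metalloprotease that can cleave reelin, read 1400, 2483 and 3173 in deprived layers and 557.8, 1228 and 1353 in non-deprived layers. Its difference was 1.19 ± 0.20 (adjusted p = 0.0278), with no overlap and with both magnocellular arrays at the bottom of their sets. BRINP3, a protein of a family induced by retinoic acid in neurons, read 745.4, 2376 and 3370 against 365.4, 749.9 and 924.8. Here the sets overlapped, because deprived layer 1 lay below non-deprived layers 3 and 5, but each pair differed the same way and the difference was 1.52 ± 0.24 (adjusted p = 0.0278).

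Regulators of transcription and of RNA were also among the higher genes. KLF4, a zinc-finger transcription factor, read 1879, 2483 and 2491 in deprived layers against 937.9, 1168 and 923 in non-deprived layers, a difference of 1.17 ± 0.19 (adjusted p = 0.0278). Its sets were well apart and tight in both. ST18, another zinc-finger factor, differed by 1.50 ± 0.24, and ATAD2B, a bromodomain ATPase, by 1.30 ± 0.22. YBX3, a cold-shock domain protein that binds RNA and DNA, read 2462, 2564 and 2940 against 687.9, 1165 and 1234, a difference of 1.41 ± 0.20 (adjusted p = 0.0253). PAIP2B, which represses translation through poly(A)-binding protein, differed by 2.09 ± 0.35, with a wide range over pairs of 1.39 to 3.21. LAS1L, needed for ribosome assembly, differed by 1.40 ± 0.25.

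The remaining genes among the 15 largest were ITPRID2, which binds receptors of inositol trisphosphate (1.73 ± 0.32), CETN3, a centrin of the centrosome (1.27 ± 0.21), TST, a mitochondrial sulfurtransferase (1.32 ± 0.24), and NHLRC2 (1.37 ± 0.27). On none of these did the sets overlap. Some smaller members of the higher group were chosen after their values were seen. PTPRZ1, a receptor phosphatase of glia and their precursors, differed by 0.99 ± 0.19, and ID4, an inhibitor of bHLH transcription factors that is high in astrocytes, by 0.90 ± 0.18, with 0.22 on its other probe set. CYLD, a deubiquitinase that restrains NF-kB signalling, read 6687, 7294 and 6927 against 3532, 3576 and 3413, a difference of 0.99 ± 0.17, while its other 3 probe sets gave 0.63, 0.23 and -0.02 without passing. NBEA, which acts in membrane traffic to synapses, differed by 0.86 ± 0.17 and was the smallest higher difference to pass.

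**Figure D2:**
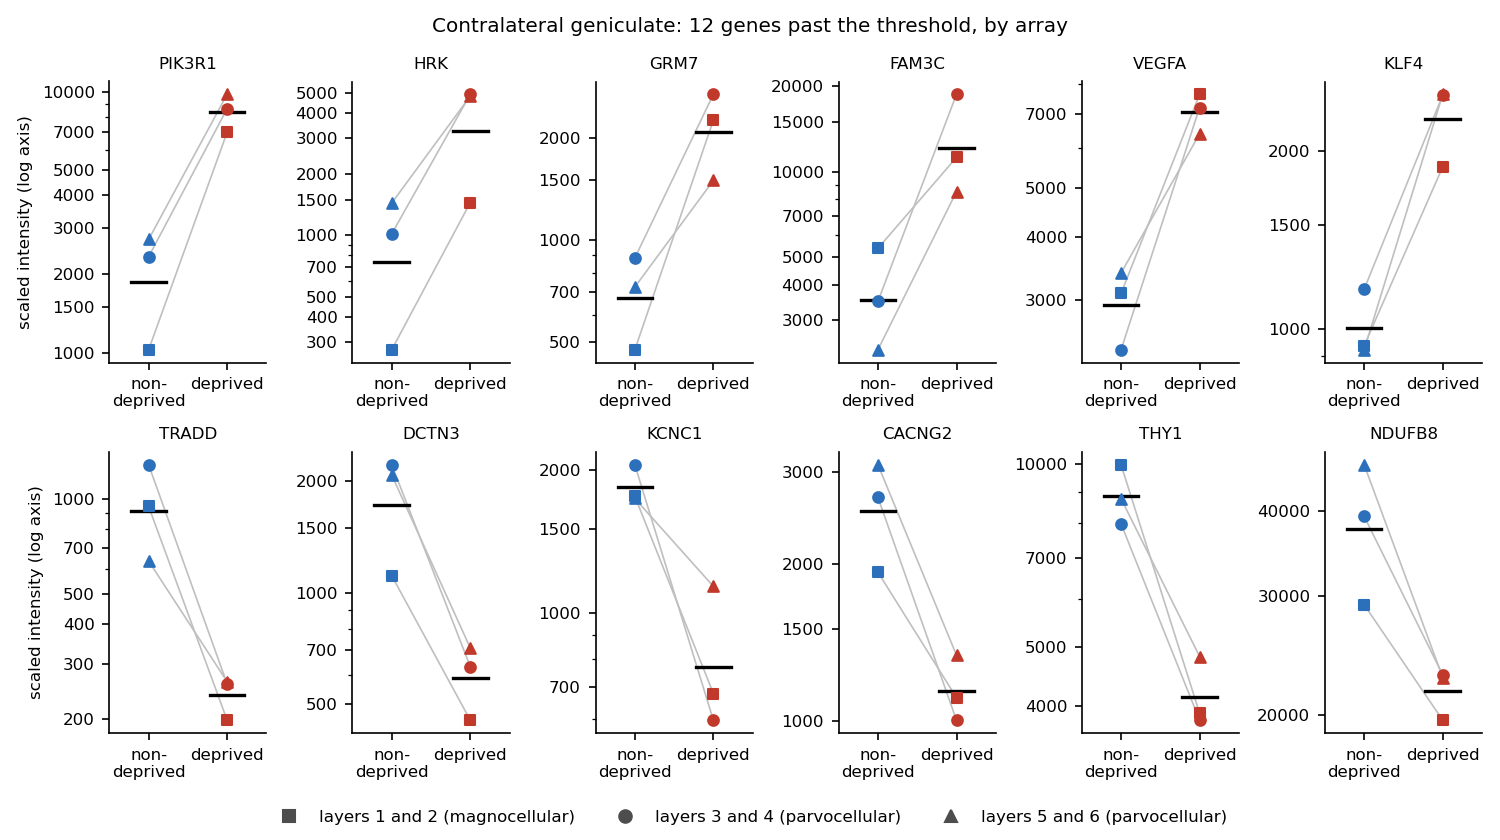
Scaled intensity (log y axis) of 12 genes past the threshold on the 6 contralateral arrays, with non-deprived layers in blue, deprived layers in red, a marker shape for each layer pair, grey lines joining the layers of a pair and black bars at the geometric mean of each set of 3. In each gene all 3 lines run the same way, upward in the top row (PIK3R1 by 2.17 on the log2 scale) and downward in the bottom row (TRADD by -1.94).

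Channel, receptor and membrane genes were among the lower ones. KCNC1, a potassium channel of the Kv3 family that lets neurons fire rapidly, read 677.1, 595 and 1138 in deprived layers and 1760, 2051 and 1742 in non-deprived layers, a difference of -1.26 ± 0.25 (adjusted p = 0.047). CACNG2, also known as stargazin, which brings AMPA receptors to synapses, read 1108, 1003 and 1336 against 1926, 2679 and 3094, a difference of -1.14 ± 0.21 (adjusted p = 0.0357). Both were lower in every deprived layer than in any non-deprived one. THY1, a glycoprotein of the neuronal membrane, read 3897, 3796 and 4830 against 9969, 7974 and 8769, a difference of -1.10 ± 0.19, and its other 2 probe sets gave -0.55 and -0.18. PCDH7, a protocadherin of cell adhesion, differed by -1.03 ± 0.20, and CLPTM1, a membrane protein that affects GABA receptor traffic, by -1.04 ± 0.18.

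The other named lower genes act mostly inside the cell. TRADD, the adaptor of the TNF receptor, read 198.6, 258.7 and 263 in deprived layers against 946.1, 1282 and 635 in non-deprived layers. This was the largest lower difference, -1.94 ± 0.34 (adjusted p = 0.0333), but its second probe set differed by 0.09 and did not pass. DCTN3, a subunit of the dynactin complex of retrograde axonal transport, read 453.3, 632.5 and 710.2 against 1113, 2217 and 2080, a difference of -1.55 ± 0.21 (adjusted p = 0.016). NDUFB8, a subunit of respiratory complex I, read 19678, 22963 and 22746 against 29123, 39298 and 46820, a difference of -0.79 ± 0.15 (adjusted p = 0.044), with -0.57 and -0.30 on its other 2 probe sets.

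EEF2, the elongation factor that moves the ribosome along mRNA, differed by -1.49 ± 0.24 on 1 probe set, whose sets overlapped, and by -0.60 on the other, which did not pass. DMAC2, an assembly factor of complex I, differed by -1.26 ± 0.25 (-0.33 on its other probe set), DCXR, a carbonyl reductase of sugars, by -1.06 ± 0.18, and ARF3, a small GTPase of the Golgi, by -0.85 ± 0.15. The other 2 ARF3 probe sets gave -0.42 and 0.14 and did not pass. WNT5A, a secreted Wnt ligand, read 3672, 1119 and 1034 against 6733, 2657 and 1910, a difference of -1.0 ± 0.20 (adjusted p = 0.047). Its sets overlapped because both magnocellular layers were high, and its other probe set differed by -0.29.

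Haemoglobin transcripts split by chain, a pattern that was chosen after the values were seen. Of the probe sets tested, 6 are annotated to both alpha-globin genes, HBA1 and HBA2, and all 6 were lower in deprived layers, by -1.57 to -1.11, with no overlap on any of them. The brightest read 7888, 8573 and 9342 in deprived layers and 35900, 18840 and 24577 in non-deprived layers, a difference of -1.57 ± 0.21 (adjusted p = 0.016). A second also passed, with -1.54 ± 0.21 (adjusted p = 0.0216), and the other 4 had adjusted p from 0.0634 to 0.0985. The largest gap was between layers 1 and 2, where the brightest probe set differed by -2.19, against -1.14 and -1.40 in the parvocellular pairs.

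The beta-like chains did not follow. The 3 HBB probe sets differed by -0.07, 0.08 and 0.44 and HBD by -0.05, all with overlapping sets and adjusted p of 0.584 or more. In the magnocellular pair HBB was lower in the deprived layer on every probe set (2088, 2580 and 2553 in layer 1 against 3091, 4054 and 4093 in layer 2). In layers 4 and 6 it was at or above its neighbour. The 6 alpha-globin probe sets share near-identical targets and are not independent, and their direction held in all 19 settings, while HBD and 2 of the HBB probe sets changed sign among them.

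**Figure D3:**
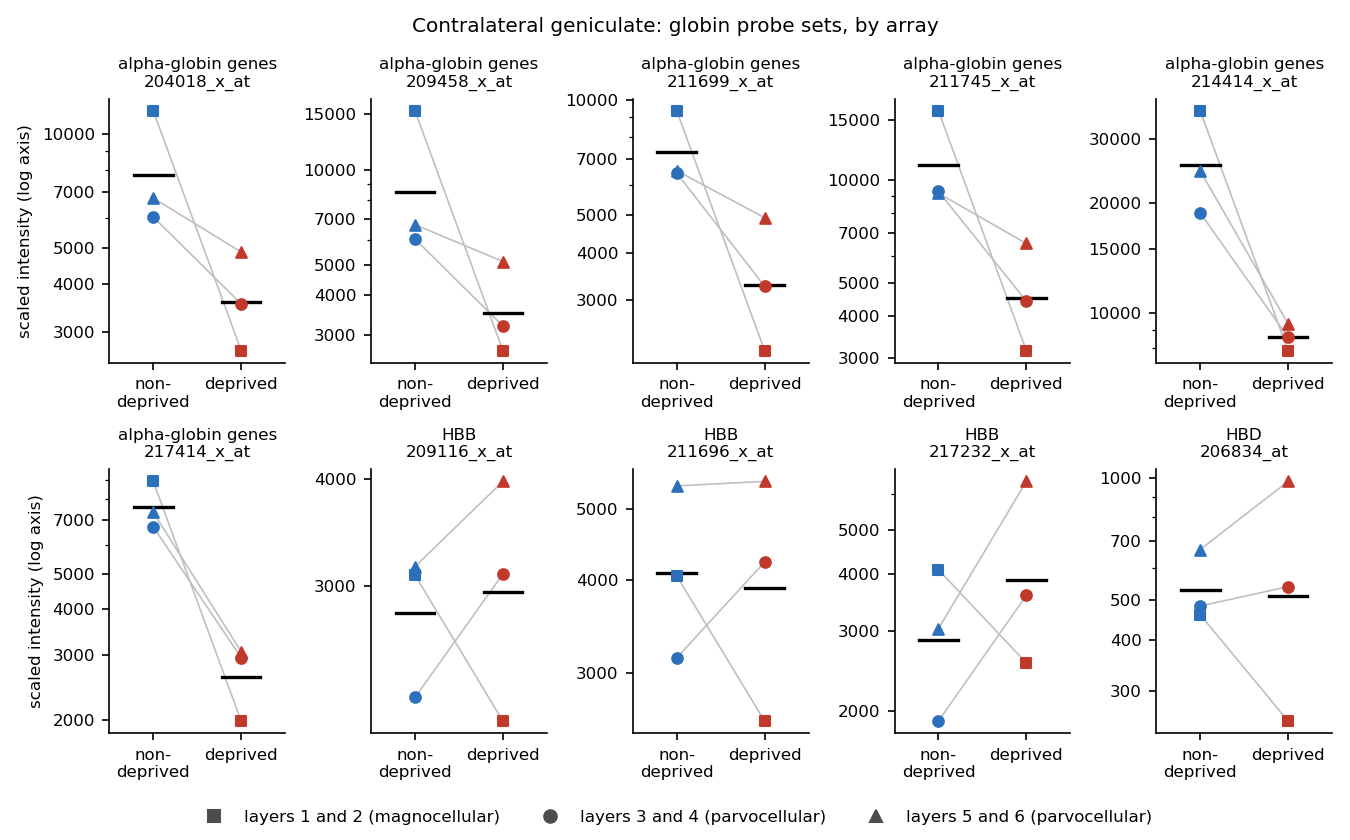
Scaled intensity (log y axis) of 6 alpha-globin probe sets, 3 HBB probe sets and 1 HBD probe set on the 6 contralateral arrays, with the colours, shapes, lines and bars of the plot of 12 genes by array. All 3 lines fall on each alpha-globin probe set, whereas on HBB and HBD the magnocellular line falls and the parvocellular lines stay level or rise.

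Genes of energy metabolism had the lowest median of the gene lists. Of 63 measured nuclear genes of oxidative phosphorylation, which build the respiratory chain and ATP synthase, 54 were lower in deprived layers and 9 higher, with a median log2 difference of -0.269. Among all 7285 genes, 52% were lower and the median was -0.0165. The list's medians were -0.228 between layers 1 and 2, -0.371 between 4 and 3, and -0.303 between 6 and 5. On 21 members the deprived set lay wholly below the non-deprived set, as on 7.64% of all probe sets tested, and on 1 member wholly above. NDUFB8 alone passed the threshold, and 20 members (31.7%) were lower at an unadjusted p under 0.05, beside 515 (7.07%) of all genes.

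Other members were lower without passing, and those named after ATP5F1D were chosen after their values were seen. ATP5F1D, of ATP synthase, read 5128, 5006 and 4672 in deprived layers and 9076, 7629 and 7623 in non-deprived layers, a difference of -0.71 ± 0.17 that did not pass (adjusted p = 0.0832). NDUFA3 and NDUFA10, of complex I, differed by -0.85 ± 0.20 and -0.79 ± 0.19, and COX7B and COX5B, of cytochrome oxidase, by -0.57 ± 0.14 and -0.64 ± 0.18, all without overlap. NDUFS7, also of complex I, differed by -0.66 ± 0.18. Among these chosen genes the adjusted p ran from 0.0875 for NDUFA3 to 0.141 for COX5B. In the other direction, SDHC was the only member higher at an unadjusted p under 0.05 by limma (0.43 ± 0.19). The median of the list stayed between -0.296 and -0.21 in every setting.

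Pathways that feed or spend this energy leaned the same way, with no member past the threshold. Of 35 genes of glycolysis and the citric acid cycle, 25 were lower (median -0.163). ALDOA, the aldolase of glycolysis, read 36953, 48956 and 50640 against 54084, 74861 and 66594 (-0.52 ± 0.13, adjusted p = 0.0893). SUCLG2, of the citric acid cycle, differed the other way by 1.06 ± 0.23 (adjusted p = 0.0612). Of 24 ATPases that hold ion gradients, 16 were lower (median -0.209). ATP6V1E1, of the proton pump that acidifies synaptic vesicles, read 10114, 14905 and 10667 against 16551, 30972 and 21883 (-0.93 ± 0.19, adjusted p = 0.0602). ATP6AP2, of the same list, differed the other way by 0.79 ± 0.18 (adjusted p = 0.0791), and by 0.20 on its other probe set. Over the other settings the 2 medians shrank to as little as -0.0629 and -0.0816.

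Genes of neuronal structure and release leaned lower by less, and none passed. Of 30 neuronal cytoskeleton genes, 21 were lower (median -0.134). The heavy and medium neurofilament genes NEFH and NEFM, which fill large axons, differed by -0.39 ± 0.13 and -0.38 ± 0.14, and the brightest probe set of the light chain NEFL by 0.00 ± 0.13. KIF5A, a kinesin of axonal transport, read 4596, 5474 and 4984 against 8554, 7222 and 8160 (-0.67 ± 0.18, adjusted p = 0.111). Of 34 synaptic vesicle and release genes, 21 (61.8%) were lower (median -0.121), beside 52% of all genes. Their 3 pairs gave -0.161, 0.0129 and -0.199, so layers 4 and 3 did not share the lean. Over the other settings the cytoskeleton and release medians shrank to as little as -0.0295 and -0.0162.

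Release genes near the threshold lay in both directions. SYT2, a fast calcium sensor of release, read 67.6, 176.8 and 428 against 487.2, 864.8 and 847.9 (-1.80 ± 0.41, adjusted p = 0.0749), and VAMP1, a vesicle fusion protein, differed by -0.60 ± 0.14. PCLO, a scaffold of the release site, read 7208, 9654 and 7171 against 5081, 4047 and 3610, the opposite direction (0.92 ± 0.20, adjusted p = 0.068), and SYPL1, a relative of synaptophysin, differed by 1.00 ± 0.24 (adjusted p = 0.0875). The lowest SYT2 value is below the intensity floor of 110.8 and was raised to it for the test.

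Receptors and channels did not move as blocks. Of 15 glutamate receptor genes, 10 were higher (median 0.203), and GRM7 alone passed. GRIN2A, a subunit of the NMDA receptor, went the other way, at 13084, 12208 and 11255 against 15776, 26986 and 23876 (-0.83 ± 0.19, adjusted p = 0.0774). Of 11 genes of GABA synthesis, transport and reception, 7 were higher and none passed, with a median of 0.045 that ranged from -0.012 to 0.292 over the settings. Of 23 genes listed under voltage-gated and HCN channels, KCNC1 and CACNG2 passed, both lower. CACNG2 is counted there, although it is the AMPA receptor partner described above. That list divided 11 higher to 12 lower, with a median of -0.127 that became 0.0157 when the probe sets of a gene were averaged.

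The lists that hold the leading higher genes showed little else. Of 17 genes of the BCL2 family and its partners, HRK passed, 9 were higher and 8 lower (median 0.0516). DIABLO, which releases the block on caspases, differed by -0.56 ± 0.22 and did not pass. Of 24 insulin and IGF signalling genes, PIK3R1 passed, 11 were higher and 13 lower (median -0.016). IGFBP5, which binds IGF, differed by 0.84 ± 0.26 (adjusted p = 0.172). The BCL2 and insulin medians changed sign in 4 and 7 of 20 settings.

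Of 25 neurotrophins, growth factors and receptors, 17 were higher (median 0.135), and VEGFA passed. FGF13, an intracellular partner of sodium channels, read 7136, 6522 and 3553 against 2580, 2846 and 1974, without overlap (1.17 ± 0.25, adjusted p = 0.0607). Of 13 reelin pathway genes, 9 were higher (median 0.154), and ADAMTS3 passed. RELN, reelin itself, read 15291, 9585 and 8628 against 6091, 6634 and 7362, also without overlap (0.70 ± 0.21, adjusted p = 0.157).

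Activity-regulated genes, which many neurons switch on with synaptic drive, were not mostly lower in the deprived layers. Of 21 measured, 13 were higher and 8 lower (median 0.0906), and the only one past the threshold was KLF4, which was higher. EGR1 read 1832, 3410 and 3697 in deprived layers and 1340, 2298 and 3846 in non-deprived layers, with overlap (0.32 ± 0.22). EGR3 differed by 0.76 ± 0.31 and JUN by 0.97 ± 0.26, and neither passed. The brightest JUN probe set differed by 0.34 ± 0.22, with overlap. FOS and BDNF were not among the genes tested.

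Protein synthesis and chromatin lists leaned lower without a member past the threshold. Of 50 cytosolic ribosomal protein genes, 39 were lower (median -0.165), but the 3 pairs gave -0.183, -0.384 and 0.0147. RPS10 read 50785, 51592 and 62648 against 67843, 81073 and 78241 (-0.46 ± 0.13, adjusted p = 0.131), and other RPS10 and RPL38 probe sets went either way. Of 19 Polycomb genes, which keep chromatin silent, 14 were lower (median -0.239, shrinking to as little as -0.0961 over the other settings). Their 3 pairs gave -0.0622, -0.136 and -0.215. Only 1 member was lower at an unadjusted p under 0.05 by limma, beside 7.07% of all genes. PCGF1, of the PRC1 complex, read 2629, 3740 and 2894 against 4884, 4816 and 6240 (-0.79 ± 0.19, adjusted p = 0.0895), and its other probe set differed by -1.54 ± 0.39 (adjusted p = 0.102).

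Of 32 proteasome genes 20 were lower (median -0.0888), and of 28 chaperones 17 (median -0.0746, or 0.0442 with the probe sets of a gene averaged), with none past the threshold. Of 29 antioxidant enzymes 17 were lower (median -0.0768). NQO2, a quinone reductase, read 7344, 5010 and 4514 in deprived layers and 21074, 6980 and 8557 in non-deprived layers, so non-deprived layer 2 stood far above the rest (-0.97 ± 0.20, adjusted p = 0.0602). CRH, the stress neuropeptide, read 38230, 13159 and 10714 against 54508, 21066 and 31283, with overlap between the cell classes (-0.91 ± 0.19, adjusted p = 0.0605). Among 18 neuropeptide genes and their receptors, 10 were lower and none passed. Of 23 calcium-binding and calcium store genes 13 were higher, and of 13 genes of MHC class I presentation 6 were, and again none passed.

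Markers of other cells were read beside these results, since fewer cells of a type and less RNA per cell cannot be told apart in such samples. Of 21 astrocyte markers 18 were higher in deprived layers (median 0.236), none past the threshold. Their summed intensity was 262778 to 310795 in deprived layers and 227497 to 269463 in non-deprived layers, so the sets overlapped. GFAP, the intermediate filament of astrocytes, read 3965, 2630 and 3387 against 2445, 2459 and 2078 (0.50 ± 0.19, adjusted p = 0.254). The part of astrocytes in the higher signals was not tested.

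The other marker lists overlapped between the sets too. The summed intensity of 18 oligodendrocyte and myelin markers was 139215 to 203554 in deprived layers and 139753 to 173650 in non-deprived layers, with 12 higher (median 0.114). For 11 microglia and complement genes it was 13088 to 17936 against 14170 to 16023 (median -0.13, or 0.0313 without deprived layer 4). For 15 endothelial and mural markers it was 24828 to 25712 against 24514 to 26696 (median 0.0351). The part of vessels or blood in the alpha-globin difference was not tested. The 13 relay neuron markers summed to 160060 to 180471 against 175695 to 186899, with 10 of 13 lower (median -0.0914). The 8 interneuron markers summed to 65938 to 143414 against 91320 to 135641, with 4 higher and 4 lower.

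**Figure D4:**
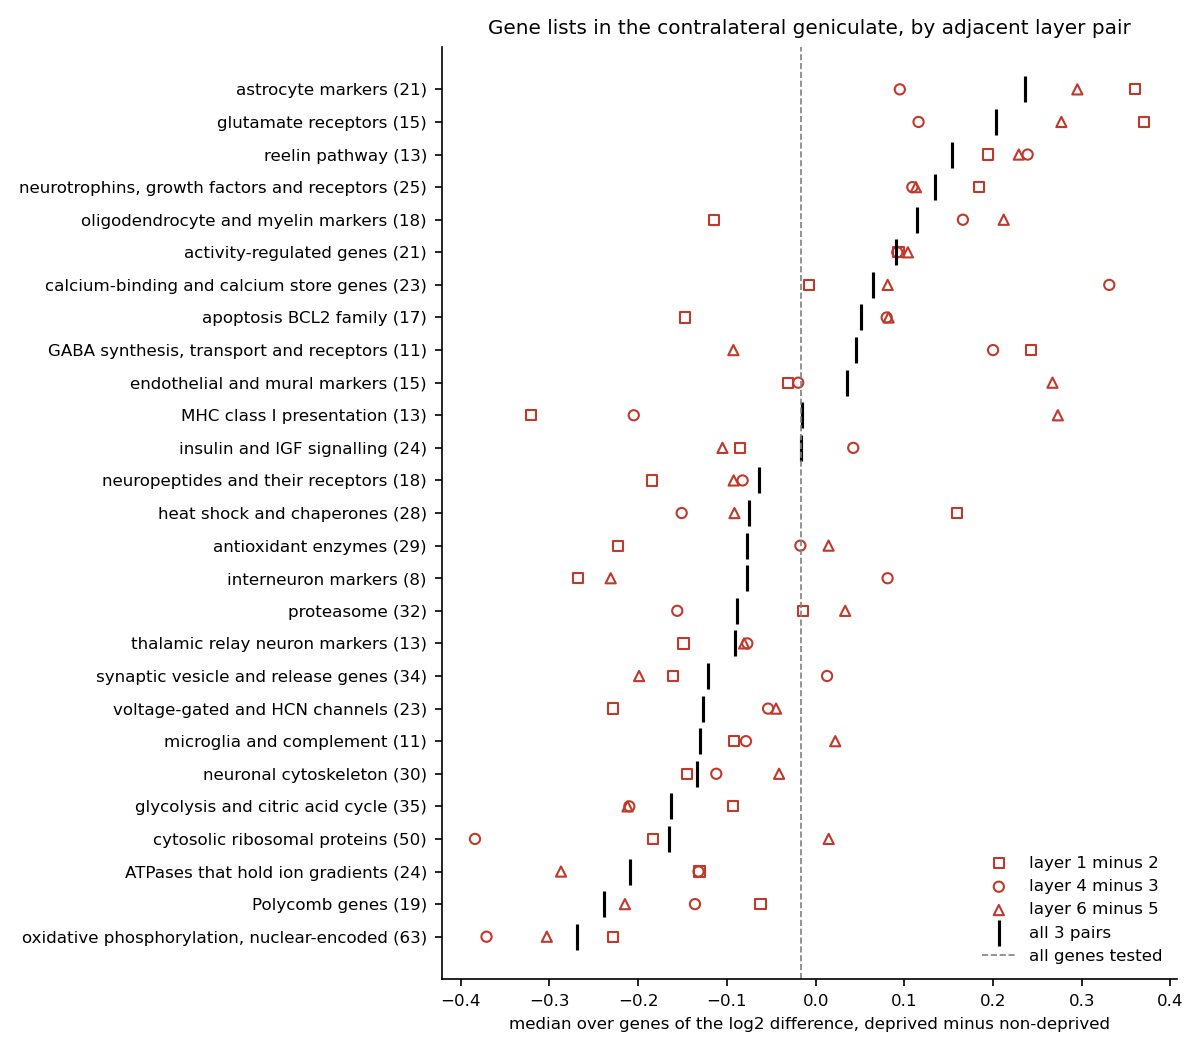
Median over the genes of each list of the log2 difference between deprived and non-deprived contralateral layers (x axis), for each adjacent layer pair (open symbols) and for all 3 pairs (black bars), with the number of genes measured in parentheses and the median of all genes as a dashed line at -0.0165. Oxidative phosphorylation has the lowest median (-0.269), with all 3 pairs below the line, and astrocyte markers the highest (0.236).

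The ipsilateral geniculate holds the same contrast with the layer sets exchanged, and a fit over all 12 arrays gave each side's difference and the test between them. In that fit 1 probe set, of PIK3R1, passed contralaterally (0.009%), none passed ipsilaterally (0%), and for none did the sides differ past the threshold (0%; smallest adjusted p = 0.344). At an unadjusted p under 0.05 these counts were 835, 1262 and 730 by limma. The ipsilateral count of probe sets past the threshold depended on single arrays. It was 17 higher and 12 lower without ipsilateral non-deprived layer 6, and 1 higher and 15 lower without ipsilateral deprived layer 3. The fit over 12 arrays takes its spread from both sides, whereas the 60 calls rest on the spread of the 6 contralateral arrays.

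Of the 60 contralateral probe sets, 38 had the same sign ipsilaterally. Among the 43 higher ones this was 25 (58.1%), beside 55.1% of all probe sets that were positive on that side. Among the 17 lower ones it was 13 (76.5%), beside 44.9% of all that were negative. The ipsilateral difference reached an unadjusted p under 0.05 with the same sign in 16 (26.7%), beside 11.4% of all probe sets that reached it with either sign. The difference between the sides did so in 28, beside 6.57% of all, but it holds the contralateral values on which the 60 were called. The ipsilateral signs moved with the scaling. The median ipsilateral difference of all probe sets was 0.0523 as deposited, -0.211 with median centring and -0.02 with quantile normalization. With median centring 20 of the 43 higher probe sets were positive (46.5%, beside 29% of all) and 15 of the 17 lower ones negative (88.2%, beside 71% of all). Across all 11105 probe sets the 2 sides' differences correlated with r = 0.149, a description over probe sets that are not independent.

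Several leading genes leaned the same way on the other side, where none passed after adjustment. Of those given here, HRK, PIK3R1, BRINP3, KLF4 and ADAMTS3 had been picked from earlier results over the arrays of both sides. Their lean on both sides was largely fixed by that choice, so neither side is separate support for the other. HRK read 1203, 4551 and 4732 in ipsilateral deprived layers 2, 3 and 5 and 720.4, 1671 and 697.6 in non-deprived layers 1, 4 and 6, a difference of 1.65 ± 0.35 beside the contralateral 2.14. PIK3R1 read 5494, 5885 and 5425 against 1186, 4547 and 3165, a difference of 1.12 ± 0.30. BRINP3 differed there by 1.25 ± 0.32, KLF4 by 0.89 ± 0.24 and ADAMTS3 by 0.78 ± 0.24. PCDH7, in the lower group, differed by -1.36 ± 0.38. For these 6 genes the contralateral minus ipsilateral difference lay between 0.27 and 1.05, and none passed after adjustment.

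Others were seen contralaterally with little or the opposite on the other side, none of them past the threshold of the test between sides. Each of these may equally be a difference between the layer sets. ATXN1, a polyglutamine protein that binds RNA and transcription factors, read 3510, 4998 and 5954 against 1893, 2237 and 2713 contralaterally (1.06 ± 0.19, adjusted p = 0.0337). Ipsilaterally it read 2214, 1543 and 1257 in deprived and 2170, 3648 and 3595 in non-deprived layers (-0.91 ± 0.28). The sides differed by 1.97 ± 0.39 (adjusted p = 0.344), and its second probe set differed by 0.18 contralaterally. In the terms of layers, ATXN1 was higher in layers 4 and 6 than in layers 3 and 5 on both sides.

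FAM3C differed by -0.26 ± 0.39 ipsilaterally, VEGFA by -0.25 ± 0.27, YBX3 by -0.10 ± 0.36 and EEF2 by 0.36 ± 0.31. NDUFB8 differed there by 0.04 ± 0.19, although its list leaned lower on that side too, with 47 of 63 genes lower and a median of -0.249 (-0.512 with median centring and -0.15 with quantile normalization). CLDN15, ATP1B3, NAP1L3 and PDCD5 had, with ATXN1, the smallest p for the difference between sides, each at an adjusted p of 0.344. CLDN15, a claudin of tight junctions, differed by -0.63 contralaterally and 1.97 ipsilaterally. ATP1B3, a subunit of the sodium pump, differed by 0.36 and -0.81.

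Lists differed between the sides in a few places, for which no test was made. Here too side and layer set cannot be told apart. Ribosomal protein genes were lower in 39 of 50 contralaterally (median -0.165), whereas ipsilaterally they had no settled direction, with a median of 0.141 as deposited, 0.249 with quantile normalization and -0.122 with median centring. Polycomb genes were lower in 14 of 19 contralaterally and 7 of 19 ipsilaterally. Their ipsilateral median was 0.108 as deposited, 0.123 with quantile normalization and -0.155 with median centring. Oligodendrocyte markers were higher in 12 of 18 contralaterally and 18 of 18 ipsilaterally (0.114 and 0.546), and microglia genes in 4 of 11 and 11 of 11 (-0.13 and 0.426). With median centring these ipsilateral counts were 14 of 18 and 9 of 11. The ipsilateral side had the widest GAPDH 3'/5' ratios, up to 9.38 and 11 on deprived layers 2 and 5, beside 2.208 to 4.09 contralaterally. The part of RNA quality in these differences between sides was not tested.

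**Figure D5:**
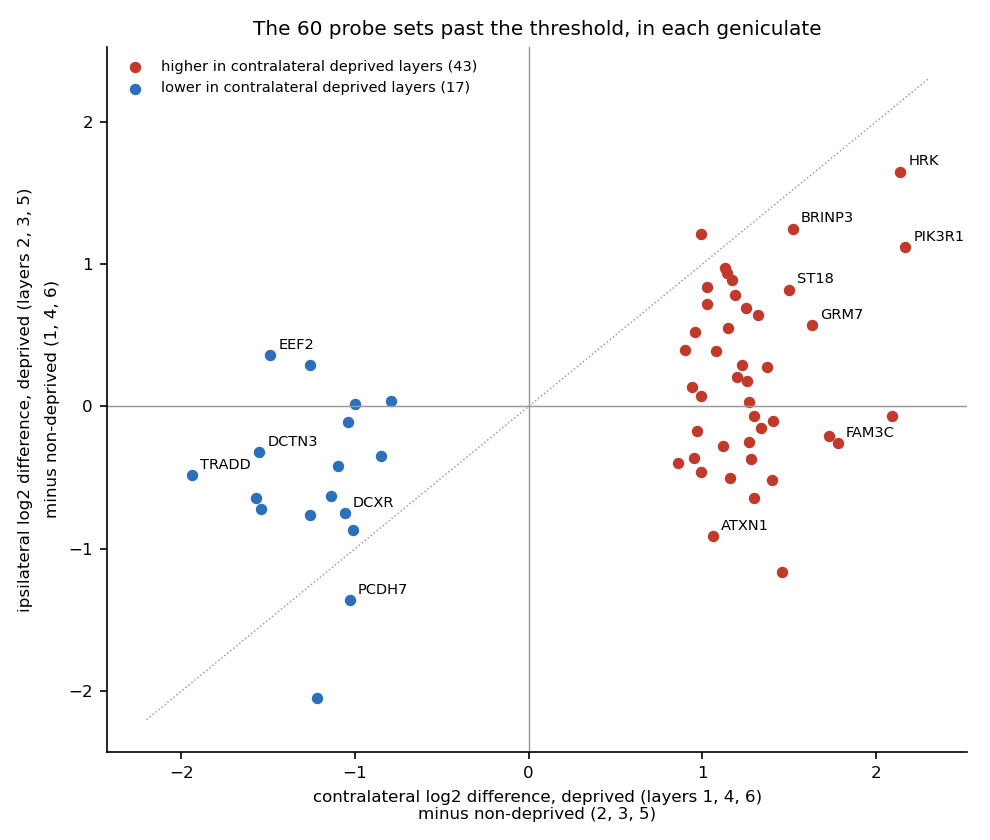
Log2 difference between deprived and non-deprived layers of the 60 probe sets past the contralateral threshold, in the contralateral geniculate (x axis) and in the ipsilateral geniculate (y axis), with the 43 higher in red, the 17 lower in blue and a dotted line of equal differences. On the ipsilateral axis 25 of the 43 red points lie above 0 and 13 of the 17 blue points below it, with HRK at 1.65 and ATXN1 at -0.91.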

How the data were processed

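Total RNA of 12 geniculate layer samples was measured, and the 6 contralateral ones are described. The deposited intensities, 1 per probe set and array on a linear scale, covered 22283 probe sets, and their 2% trimmed means differed between arrays by at most 0.01%, so they were used as deposited. The software behind them was not given in the sources used here. Macaque RNA can bind human probes unevenly, so levels were compared within a probe set. Before log2 was taken, any value under 110.8, the 20th percentile of all values, was set to 110.8. Leaving out 68 controls, probe sets with a mean over 12 arrays at or above the median of all were tested (11105, of which 9843 named 1 gene, 7285 genes in all). Gene names came from the platform annotation. Among all probe sets other than controls, 19065 named 1 gene, 1043 several and 2107 none here.

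The test was limma 3.58.1 (lmFit and eBayes with trend) under R 4.3.3, two-sided, over the 6 arrays with deprivation and cell class as terms (3 residual degrees of freedom), and adjusted p (Benjamini-Hochberg) had to be under 0.05. The code was tested on simulated data. A second fit over 12 arrays had cell class, deprivation, hemisphere and their interaction (7 residual degrees of freedom). A difference is deprived minus non-deprived log2 with its standard error. Array measures had an exact permutation test.

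The samples, the 28 gene lists and the named genes were chosen with earlier results of these data known. Named were up to 15 genes per direction past the threshold with the same sign in 3 of 3 layer pairs (1 probe set per gene, that of smallest p), the 5 of smallest p for the hemisphere difference, 7 genes from the earlier results, the 2 members of smallest p and any past the threshold in each list, and 21 fixed genes. The 7 genes from the earlier results had been picked over the arrays of both sides. List counts and medians used each gene's probe set of highest mean. Alternatives changed the floor, filter, scaling, trend, covariates, block and arrays.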

Additional observations from a re-analysis of the deposited data

How the results depend on the processing

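The 60 contralateral calls became 0 with no intensity filter, with no cell class term or with the parvocellular layers alone, 1 (PIK3R1) in the 12-array fit, 2 (PIK3R1 and HRK) with quantile normalization, with no trend or with the ACTB 3'/5' ratio as a covariate, and 3 (those and DCTN3) with median centring. The ACTB covariate was chosen after seeing the data. They became 103 with the floor at the 40th percentile and 141 with the layer pair as a block. Leaving out 1 array gave 0 to 60 calls. The count stayed within 1.5 times with no floor (60), the filter on 6 arrays (51) and the GAPDH ratio as a covariate (70). The cause of these shifts was not tested. No call was kept in all 6 settings that leave out an array, and 20 were kept in none. The count of the difference between sides was 0 to 3 when an array was left out, 3 (LGI2, ATXN1 and DKK3) without ipsilateral deprived layer 2, and 1 (LGI2) without the 2 arrays of highest GAPDH ratio. Among named genes, 8 values changed sign. CAMK2A, 0.09 as reported, was -0.02 without deprived layer 6 and -0.09 without non-deprived layer 3. HBD, -0.05 as reported, was 0.13 with the ACTB ratio, 0.10 with the floor at the 40th percentile, 0.36 with the parvocellular layers alone and -0.41 to 0.36 when an array was left out. With 3 arrays a side, precision is limited by their number.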
